A study of Mus musculus with 9 samples.

Results

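The 39 genes described here encode the proteins that license, open and copy chromosomal DNA in S phase, with enzymes that supply the nucleotides and regulators that start the phase. They were chosen by name, with earlier results of these data known. Every array probe set (a group of short probes that reads 1 transcript) whose only gene symbol was one of these names was taken. This gave 87 of the 45101 probe sets. Of these, 78 passed the filter on dim probe sets and 9 did not. All 39 genes had at least 1 probe set that passed, among 11671 genes tested of 18193 with a symbol on the array, and each of the 39 exceeded the array median on at least 1 array of every group. Expression was measured in total RNA of mouse tissue, with 3 Affymetrix Mouse430_2 arrays per group, from XIST-resistant thymus tumors (XIST is the RNA that silences an X chromosome), thymus tumors and normal thymus. Strain, genotype, age, treatment and the number of animals are not given in the labels used here. The spread behind every p-value is therefore that of arrays, and part of it may be technical. The question addressed is whether replication genes differ in level between either tumor group and normal thymus, and between resistant tumors and tumors.

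Before S phase the origin recognition complex, Cdc6 and Cdt1 load the MCM2-7 ring onto DNA, and at its start Cdc45 and the GINS complex turn that ring into the active helicase. Polymerase alpha with primase begins each strand, a clamp loader of RFC subunits sets the PCNA ring on the DNA, polymerases delta and epsilon extend, and Fen1 and Lig1 join the fragments of the lagging strand. Many of these genes are known targets of E2F transcription factors, which are held in check by RB proteins until a cell commits to divide. In the thymus, the immature thymocytes of the cortex are known for rapid division.

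The sequences just before the start of 5 of the genes are shown first, because E2F sites are a known feature of replication gene promoters. Starts and sequences are from RefSeq (build GRCm38.p6), whose promoter table held 31 of the 39 genes. Ccne2, Gins1, Gins2, Gmnn, Mcm4, Pole, Prim2 and Rfc2 were not matched. The 250 bases before the start were searched on both strands for TTTCCCGC, TTTGGCGC, TTTGCCGC and TTTCGCGC, each a form of the E2F site. At least 1 of them stood in 8 of the 31 genes (25.8%), namely Mcm6, Orc1, Mcm7, Rfc3, Mcm5, Gins3, Cdc6 and Pola1, against 2.16% of 27025 genes in the table. The letters CCAAT, on either strand, stood in 19 of the 31 (61.3%) and in 37.5% of all genes. Printed below are the 180 bases before the start of the genes with such letters that passed the test in at least 1 comparison with normal thymus, 5′ to 3′ on the gene's strand, with the letters found in capitals. They lie at chr11:98907971-98908150 on the plus strand for Cdc6, chr5:151651209-151651388 on the minus strand for Rfc3, chr8:95633379-95633558 on the plus strand for Gins3, chr1:128359706-128359885 on the minus strand for Mcm6 and chr5:138171884-138172063 on the minus strand for Mcm7.
Cdc6: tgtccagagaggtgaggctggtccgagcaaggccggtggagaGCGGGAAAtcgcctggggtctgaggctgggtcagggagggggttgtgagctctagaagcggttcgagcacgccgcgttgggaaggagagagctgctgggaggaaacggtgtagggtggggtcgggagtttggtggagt
Rfc3: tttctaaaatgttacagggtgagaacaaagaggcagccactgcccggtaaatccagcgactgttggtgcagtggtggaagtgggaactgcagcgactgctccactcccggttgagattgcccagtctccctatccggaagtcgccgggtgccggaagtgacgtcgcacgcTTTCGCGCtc
Gins3: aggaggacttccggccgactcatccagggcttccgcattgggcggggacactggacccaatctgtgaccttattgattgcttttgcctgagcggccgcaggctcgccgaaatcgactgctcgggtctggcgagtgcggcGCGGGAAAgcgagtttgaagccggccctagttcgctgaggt
Mcm6: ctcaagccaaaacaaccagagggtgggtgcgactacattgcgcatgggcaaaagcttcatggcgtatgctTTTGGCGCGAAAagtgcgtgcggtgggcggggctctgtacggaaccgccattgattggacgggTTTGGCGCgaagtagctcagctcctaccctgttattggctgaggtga
Mcm7: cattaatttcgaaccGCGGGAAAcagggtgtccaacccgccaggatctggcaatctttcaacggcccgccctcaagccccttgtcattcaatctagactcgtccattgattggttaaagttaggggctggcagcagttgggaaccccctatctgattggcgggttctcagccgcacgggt
Mcm6 held 3 matches, of which those starting 110 and 106 bases before the start overlap and the last starts 47 bases before it. In Rfc3 the match began 10 bases before the start, in Gins3 41, in Cdc6 138 and in Mcm7 165. Letters of this kind were present in 5 of the 21 matched genes that passed a test against normal thymus and in 3 of the 10 that did not. CCAAT stood in 10 of those 21 genes (47.6%) and in 9 of those 10. A match describes the letters and shows no binding.

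Values are MAS5 signals in arbitrary units, and a change is the difference of mean log2 signals, given ± its standard error. A gene was called higher or lower when limma's adjusted p, over all 11671 genes, was under 0.05. The arrays fell into sets by their poly-A spike-in controls, RNAs added to a sample during labelling. The controls read 2.01 to 2.95 in resistant tumor 1 and 2, tumor 1 and normal thymus 1, and 141 to 237 in the other 5 arrays. Median signals were 23.6 to 25.8 in the arrays without spike-in signal and 13.9 to 17.8 in those with it. Each set held all 3 groups, so some changes are also given within each set. The ratio of the Actb 3' to 5' probe sets, a sign of RNA integrity, was 1.96, 1.98 and 2.64 in resistant tumors, 1.92, 3.16 and 1.91 in tumors and 1.63, 1.91 and 1.92 in normal thymus. The same ratio for Gapdh was 0.942, 0.969 and 1.03 in resistant tumors, 0.939, 1.02 and 0.924 in tumors and 1.21, 1.04 and 1.04 in normal thymus. The part of these differences in the results was not tested, beyond the values within sets.

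Replication genes were higher in both tumor groups than in normal thymus. Against normal thymus, 26 of 39 genes were called higher in resistant tumors and 0 lower, beside 23.1% of all genes called higher and 20.2% called lower. In tumors 24 of 39 were called higher and 0 lower, beside 23.3% and 19.1% of all genes. The 39 genes and the other lists below were chosen with earlier results of these data known. No set test was therefore run, and the shares of all genes serve as a description only. The median change of the 39 genes was 0.61 on the log2 scale in resistant tumors, where the median of all genes was 0.06, and 0.60 in tumors, where it was 0.05. Every resistant tumor array lay above every normal array for 29 genes (28.9% of all genes did so) and every one below for 0 (25.7% of all genes). For tumors these counts were 28 (30.1% of all genes) and 0 (25.2%). Taken separately, arrays lacking spike-in signal gave medians of 0.69 in resistant tumors and 0.58 in tumors, and those having it gave 0.61 and 0.51. In the set lacking it, tumor 1 and normal thymus 1 are the only arrays of their groups. Every called gene kept its sign in both sets. This was bound to be so, because for each of them every tumor array lay above every normal array. The 2 comparisons share the normal arrays. By array, the median log2 signal of the 39 genes relative to each gene's own mean was 0.09, 0.22 and 0.21 in resistant tumors, 0.07, 0.20 and 0.17 in tumors and -0.51, -0.34 and -0.31 in normal thymus. The choice of scaling bears on these counts. After quantile normalization, which gives every array the same distribution, 27 genes were called higher in resistant tumors and 24 in tumors. With the array medians set equal by a shift of each array, only 2 genes stayed called in each comparison. These were Gins2 and Prim2 in resistant tumors and Gins2 and Tk1 in tumors. With this shift the medians of the 39 genes were 0.55 and 0.79, with 35 and 38 genes above 0. The median of all genes was then 0.00 and 0.24. In bulk tissue, more cells in S phase and more RNA of these genes per cell cannot be told apart.

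**Figure D1:**
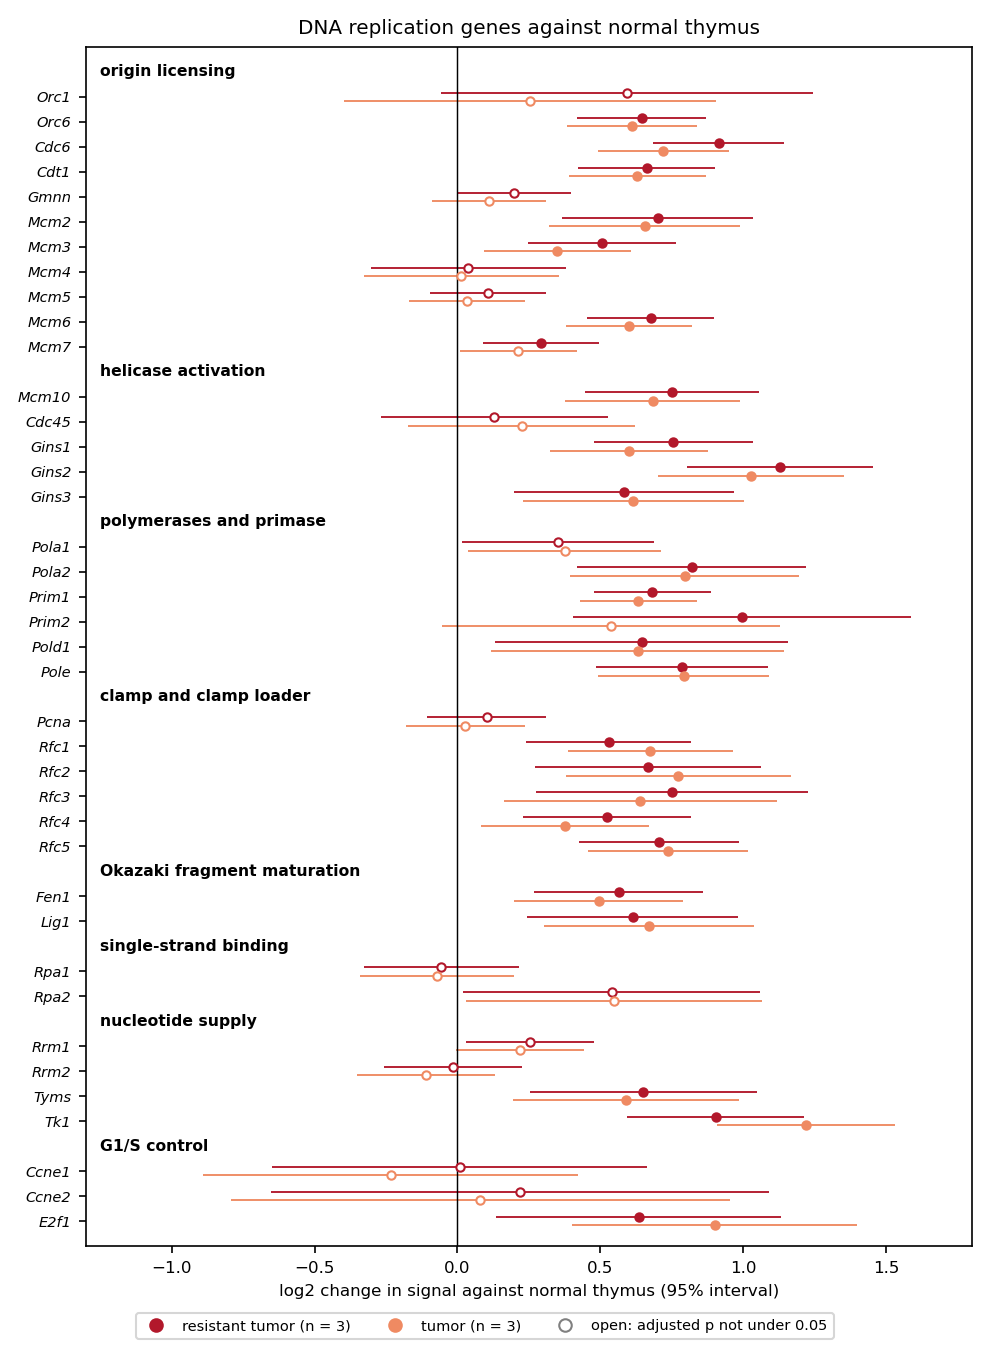
Log2 change in signal against normal thymus for each of the 39 genes, grouped by role, in resistant tumors (red) and tumors (orange), with 95% intervals (n = 3 arrays per group). Filled points passed the test (26 and 24 genes) and open points did not, and the called changes all lie right of 0.

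Origin licensing genes rose in part. In resistant tumors 7 of 11 were called higher and in tumors 6 of 11, beside 23.1% and 23.3% of all genes. Median changes were 0.59 and 0.35. Among the loaders, Cdc6 read 571, 584 and 530.2 in resistant tumors and 496, 482 and 492 in tumors, against 270.5, 324 and 302 in normal thymus. All tumor arrays lay above all normal arrays, and those of resistant tumors also above those of tumors. A gap of the first kind, named for single genes here and below, is common. It held for 28.9% of all genes in resistant tumors and 30.1% in tumors. Cdc6 rose by 0.91 ± 0.10 in resistant tumors (limma adjusted p = 9.95e-05) and by 0.72 ± 0.10 in tumors (limma adjusted p = 0.000429). Cdt1, its partner in loading MCM rings, read 1595, 1796 and 1886 in resistant tumors and 1570, 1850 and 1736 in tumors, against 999.5, 1146 and 1191 in normal thymus, changes of 0.66 ± 0.11 and 0.63 ± 0.11. The recognition complex subunit Orc6 read 464, 456 and 450.4 in resistant tumors and 466, 456 and 418 in tumors, against 275, 317 and 286 in normal thymus, changes of 0.64 ± 0.10 and 0.61 ± 0.10. For both genes the tumor arrays did not overlap the normal ones. Orc1, the largest subunit of that complex, was not called. It read 97.3, 102 and 62.8 in resistant tumors and 96.7, 54.0 and 59.0 in tumors, against 74.8, 52.9 and 46.0 in normal thymus, with groups that overlap. Its change of 0.59 ± 0.29 in resistant tumors (limma adjusted p = 0.129) was the largest there among genes that did not pass, and in tumors it was 0.25 ± 0.29. Gmnn, which encodes the Cdt1 inhibitor geminin, was not called either, with changes of 0.20 ± 0.09 and 0.11 ± 0.09.

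By the brightest probe set of each gene, Mcm2, Mcm3 and Mcm6 of the 6 subunits of the MCM2-7 helicase were called higher in both tumor groups. Differences between subunits were not tested. Mcm2 read 1126, 1303 and 1519 in resistant tumors and 1019, 1439 and 1380 in tumors, against 818, 789 and 804 in normal thymus, changes of 0.70 ± 0.15 (limma adjusted p = 0.00429) and 0.65 ± 0.15 (limma adjusted p = 0.00599). Mcm6 read 1861, 2123 and 1746 in resistant tumors and 1856, 1762 and 1798 in tumors, against 1088, 1228 and 1265 in normal thymus, changes of 0.68 ± 0.10 and 0.60 ± 0.10. Both genes rose with no overlap between tumor and normal arrays. Mcm3 read 1448, 1630 and 1421 in resistant tumors and 1346, 1554 and 1160 in tumors, against 1080, 1009 and 1075 in normal thymus, and was called in both, with changes of 0.51 ± 0.12 and 0.35 ± 0.12. In tumors the call of Mcm3 was lost without tumor 1, tumor 2 or any 1 of the normal arrays, with changes of 0.25 to 0.37 and limma adjusted p of 0.0595 to 0.121. Mcm7 read 3223, 3583 and 3223 in resistant tumors and 3104, 3243 and 3145 in tumors, against 3057, 2506 and 2651 in normal thymus. Its change passed the test in resistant tumors (0.29 ± 0.09, limma adjusted p = 0.0268) and not in tumors (0.21 ± 0.09, limma adjusted p = 0.0859), and the difference between the tumor groups was not called (0.08). Without resistant tumor 2, normal thymus 2 or normal thymus 3 the first call was lost (limma adjusted p of 0.0924 to 0.114), and without normal thymus 1 Mcm7 was called in tumors too.

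Mcm4 and Mcm5 were not called. Mcm4 read 903, 896 and 970.5 in resistant tumors and 751, 969.7 and 1024 in tumors, against 741, 937 and 1043 in normal thymus, changes of 0.04 ± 0.15 and 0.01 ± 0.15. Mcm5 read 1907, 2163 and 1906 in resistant tumors and 1844, 2004 and 1825 in tumors, against 1947, 1712 and 1891 in normal thymus, changes of 0.11 ± 0.09 and 0.03 ± 0.09. The 3 groups overlap for both genes. These are the values of each gene's brightest probe set, and others differed. The second probe set of Mcm4 read 1251, 1029 and 697 in resistant tumors and 997, 582 and 535 in tumors, against 885, 628 and 599.9 in normal thymus. Its groups overlap too, and its changes of 0.48 ± 0.30 and -0.03 ± 0.30 were not called. With the mean over probe sets Mcm5 was called higher in both comparisons and Mcm4 in neither. The second probe set of Mcm5 read 839.5, 889 and 991 in resistant tumors and 819.6, 1058 and 1001 in tumors, against 509.7, 725 and 736 in normal thymus. In a limma fit of all probe sets its changes were 0.48 ± 0.16 (adjusted p = 0.0847) and 0.56 ± 0.16 (adjusted p = 0.0503). The dimmest probe set of Mcm5 read 47.9, 49.4 and 65.9 in resistant tumors and 43.9, 58.6 and 50.7 in tumors, against 11.7, 19.4 and 19.9 in normal thymus, and it was called in that limma fit (1.70 ± 0.27 with adjusted p = 0.00319, and 1.62 ± 0.27 with adjusted p = 0.00404). Both of these probe sets were higher on every tumor array than on any normal array. The other 3 probe sets of Mcm7 changed by 0.48 to 0.56 in resistant tumors, all called there, and by 0.31 to 0.47 in tumors, with calls for those at 0.39 and 0.47. With the mean over probe sets Mcm7 and Mcm3 were called in both comparisons. In the fit of all probe sets no probe set of Mcm3 was called in tumors (changes of 0.17 to 0.53, limma adjusted p of 0.0800 to 0.774). In resistant tumors the probe set that stands for Mcm3 (0.51 ± 0.12, limma adjusted p = 0.0191) and another (0.63 ± 0.18, limma adjusted p = 0.0452) were called.

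**Figure D2:**
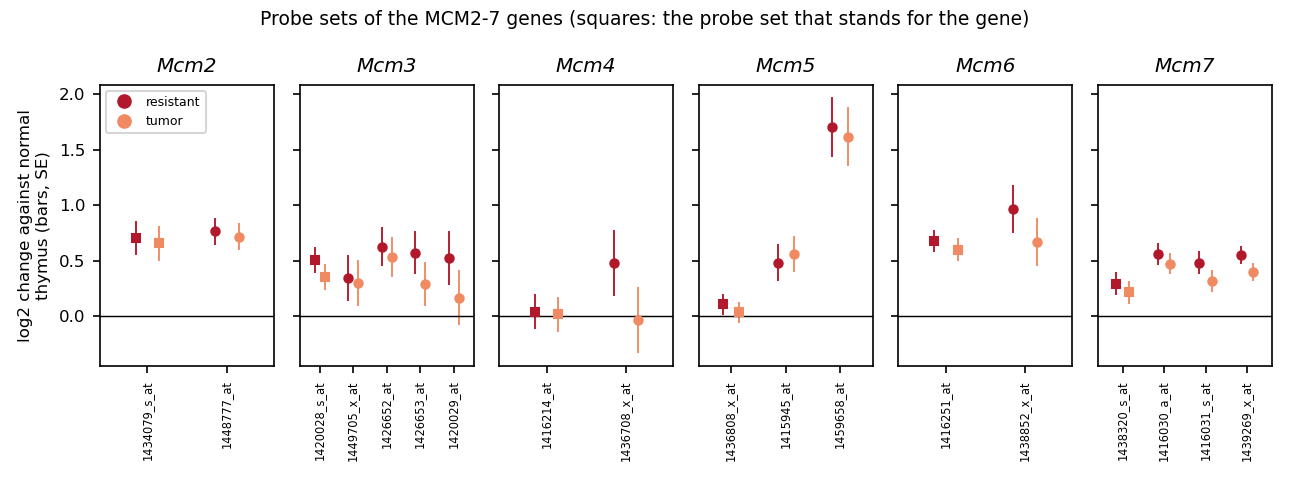
Log2 change against normal thymus, with its standard error, of every probe set of the MCM2-7 genes that passed the filter, from the fit of all probe sets, in resistant tumors (red) and tumors (orange). Squares are the probe sets that stand for the gene, and the 3 probe sets of Mcm5 spread from 0.11 to 1.70 in resistant tumors and from 0.03 to 1.62 in tumors.

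Across all 39 genes, 28 were read by several probe sets that passed, and all of a gene's probe sets had the same sign for 26 of them in resistant tumors and 25 in tumors. In the fit of all probe sets, 41 of the 78 were called higher and 1 lower in resistant tumors, beside 15.8% and 14.4% of the 24930 probe sets of the array that passed the same filter. In tumors 30 were called higher and 0 lower, beside 15.9% and 14.1%. Probe sets whose name ends in _s_at or _x_at can also read related transcripts, which applies to those standing for Mcm2, Mcm3, Mcm5, Mcm7, Gins2, Pold1, Rfc4, Fen1, Rrm2 and Ccne1.

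Genes that activate the helicase included the largest change of the set in resistant tumors. Gins2 and its partners Gins1 and Gins3 encode GINS subunits. Gins2 read 330.1, 394 and 350 in resistant tumors and 352, 317 and 329.7 in tumors, against 199, 155 and 141 in normal thymus. With no overlap, it was 2.19-fold higher in resistant tumors (1.13 ± 0.15, limma adjusted p = 0.000243) and 2.04-fold higher in tumors (1.03 ± 0.15, limma adjusted p = 0.000421). Gins1 read 389, 456 and 521 in resistant tumors and 414, 392 and 412 in tumors, against 249, 279 and 276 in normal thymus, changes of 0.76 ± 0.12 and 0.60 ± 0.12. Gins3 read 113, 112 and 85.7 in resistant tumors and 119.8, 101 and 95.4 in tumors, against 60.9, 77.4 and 68.1 in normal thymus, changes of 0.58 ± 0.17 and 0.62 ± 0.17. Both rose without overlap, but within the arrays with spike-ins Gins3 changed by 0.24 and 0.44 only, against 0.88 and 0.98 within those without. Its call was lost in resistant tumors without resistant tumor 1 or 2 or normal thymus 1 or 3 (limma adjusted p of 0.0593 to 0.0733) and in tumors without tumor 1 or normal thymus 1 or 3 (limma adjusted p of 0.0504 to 0.0547). Mcm10, a scaffold that helps to start unwinding, read 351, 365 and 345 in resistant tumors and 304, 407 and 311 in tumors, against 190.3, 215 and 227 in normal thymus, and rose by 0.75 ± 0.14 and 0.68 ± 0.14. Cdc45, the third part of the active helicase, was not called, with 174 to 192 in resistant tumors and 158 to 221 in tumors, against 131 to 193 in normal thymus (0.13 ± 0.18 and 0.22 ± 0.18).

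Polymerase and primase genes were called higher in 5 of 6 cases in resistant tumors and 4 of 6 in tumors. Of all genes 23.1% and 23.3% were. Median changes of the 6 were 0.73 and 0.63. Pole, the catalytic subunit of polymerase epsilon, read 292, 321 and 386 in resistant tumors and 301, 374 and 325 in tumors, against 190.4, 189.5 and 196 in normal thymus, changes of 0.79 ± 0.13 in each (limma adjusted p = 0.00128 and 0.00121). Pola2, the accessory subunit of polymerase alpha, read 279.9, 316 and 388 in resistant tumors and 264, 356 and 346 in tumors, against 153, 197 and 208 in normal thymus, changes of 0.82 ± 0.18 and 0.79 ± 0.18. Prim1, the catalytic subunit of primase, read 908, 944 and 878 in resistant tumors and 908, 836 and 897 in tumors, against 528, 602 and 574 in normal thymus, changes of 0.68 ± 0.09 and 0.63 ± 0.09. None of these genes overlapped between tumor and normal arrays. Prim2 encodes the regulatory subunit of primase. It read 582, 522 and 375 in resistant tumors and 493, 320.1 and 278 in tumors, against 332, 212 and 205 in normal thymus, and was called in resistant tumors (1.99-fold, limma adjusted p = 0.0130) but not in tumors (0.54 ± 0.26, limma adjusted p = 0.131). The difference between the tumor groups was not called for Prim2 (0.46 ± 0.26, limma adjusted p = 0.784), its call was lost without normal thymus 2 or 3 (adjusted p of 0.0520 to 0.0522), and without normal thymus 1 it was called in tumors too. Pold1, the catalytic subunit of polymerase delta, read 696, 829 and 1124 in resistant tumors and 617, 1051 and 969 in tumors, against 471, 588 and 612 in normal thymus. Its changes of 0.64 ± 0.23 and 0.63 ± 0.23 passed narrowly (limma adjusted p = 0.0449 and 0.0499). Those calls were lost when 1 of 6 of the 9 arrays was left out, normal thymus 1, 2 or 3, resistant tumor 2 and tumor 3 in both comparisons, resistant tumor 3 in the first and tumor 2 in the second, with limma adjusted p of 0.0574 to 0.134 and 0.0679 to 0.171. Pola1, the catalytic subunit of polymerase alpha, was not called, with changes of 0.35 ± 0.15 and 0.37 ± 0.15 (limma adjusted p = 0.0863 and 0.0704). Every array of both tumor groups was above normal for Pola1, and both comparisons were called when the spike-in set was fitted as a block.

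All 5 clamp loader genes were called higher in both tumor groups, beside 23.1% of all genes in resistant tumors and 23.3% in tumors. The gene of the clamp itself was not called. Pcna read 3324, 3641 and 2998 in resistant tumors and 3052, 2991 and 3395 in tumors, against 3197, 2926 and 3130 in normal thymus. The groups overlap, and the changes were 0.10 ± 0.09 (95% interval -0.11 to 0.31) and 0.03 ± 0.09 (95% interval -0.18 to 0.24). Among the RFC subunits, Rfc5 read 698, 686 and 709 in resistant tumors and 636, 768 and 746 in tumors, against 365, 446 and 483 in normal thymus, changes of 0.70 ± 0.12 (limma adjusted p = 0.00159) and 0.74 ± 0.12 (limma adjusted p = 0.00120). Rfc2 read 553, 587 and 765 in resistant tumors and 525, 799.6 and 738 in tumors, against 367, 410 and 413 in normal thymus, changes of 0.67 ± 0.18 and 0.77 ± 0.18. Rfc1, the large subunit, read 443, 445 and 534 in resistant tumors and 477, 601 and 498 in tumors, against 301, 347 and 336 in normal thymus, changes of 0.53 ± 0.13 and 0.68 ± 0.13. No array of either tumor group reached down to a normal array for these subunits. Rfc3 read 178, 223 and 249 in resistant tumors and 188, 205 and 204 in tumors, against 90.4, 147 and 157 in normal thymus, changes of 0.75 ± 0.21 and 0.64 ± 0.21. Rfc4 read 382, 429.6 and 505 in resistant tumors and 366, 399.5 and 417 in tumors, against 272, 326 and 315 in normal thymus, changes of 0.52 ± 0.13 and 0.38 ± 0.13. These subunits also rose without overlap, but some calls rested on single arrays. For Rfc3 the call in resistant tumors was lost without resistant tumor 2 or 3 (limma adjusted p of 0.0507 to 0.0549), and in tumors without tumor 2, tumor 3, resistant tumor 2 or normal thymus 1 (up to 0.0934, and a change of 0.39 without normal thymus 1). For Rfc4 the call in tumors was lost without tumor 2, tumor 3, resistant tumor 2 or any 1 normal array (limma adjusted p of 0.0638 to 0.132). It was also lost with the mean over probe sets.

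**Figure D3:**
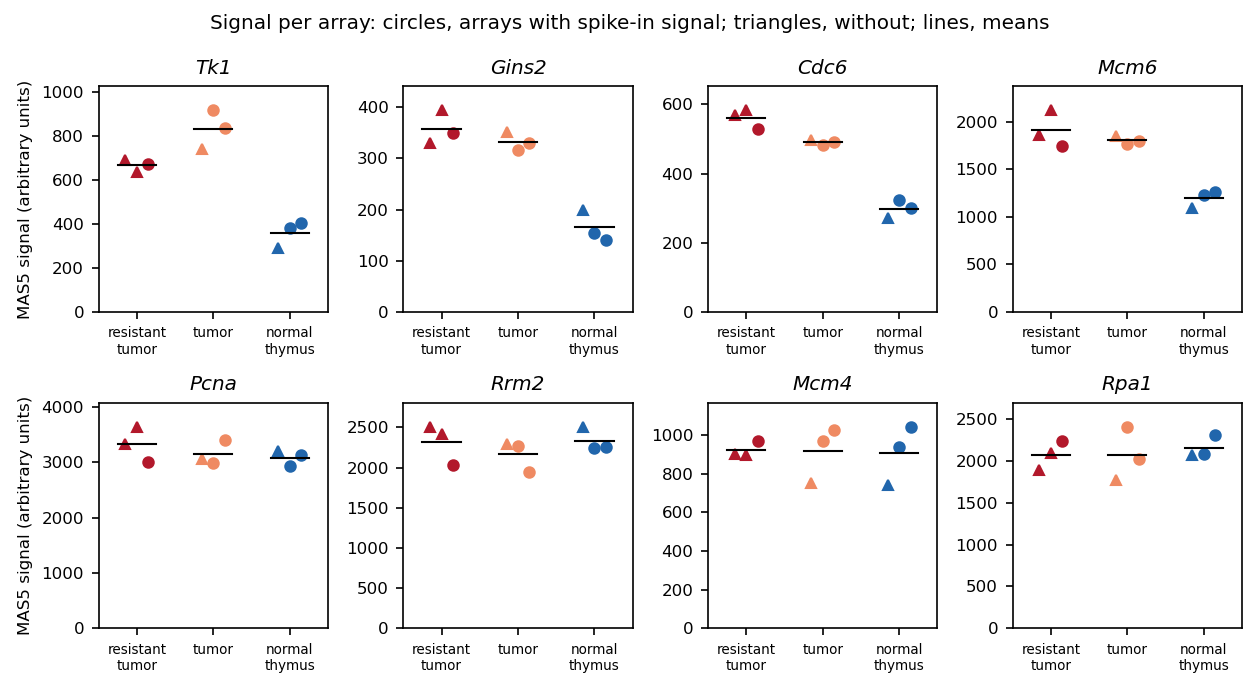
MAS5 signal on each array for 4 genes called higher in both tumor groups (top row) and 4 that were not called (bottom row), with resistant tumors left, tumors in the middle and normal thymus right (n = 3 arrays each, lines at the means, triangles for arrays that lack spike-in signal and circles for the others). Tk1, Gins2, Cdc6 and Mcm6 separate tumor from normal arrays of either spike-in set, and Pcna, Rrm2, Mcm4 and Rpa1 do not.

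Genes for joining the lagging strand rose together, while those for binding single-stranded DNA were not called. Fen1, a flap nuclease, read 762, 818 and 902 in resistant tumors and 672, 892 and 813 in tumors, against 501, 565 and 616 in normal thymus, changes of 0.56 ± 0.13 (limma adjusted p = 0.00695) and 0.49 ± 0.13 (limma adjusted p = 0.0131). Lig1, DNA ligase I, read 970.4, 1109 and 1151 in resistant tumors and 909, 1414 and 1085 in tumors, against 609, 726 and 784 in normal thymus, changes of 0.61 ± 0.16 and 0.67 ± 0.16. Neither gene overlapped with normal thymus, and the call of Fen1 in tumors was lost without tumor 2 (limma adjusted p = 0.0530). Rpa1 and Rpa2 encode subunits of the protein that coats exposed single strands. Rpa1 read 1891 to 2243 in resistant tumors and 1767 to 2408 in tumors, against 2073 to 2306 in normal thymus, changes of -0.06 ± 0.12 and -0.07 ± 0.12. Rpa2 read 412, 504 and 649.5 in resistant tumors and 422, 582 and 558 in tumors, against 255, 411 and 419 in normal thymus. Tumor arrays were all higher than normal ones for Rpa2 and resistant arrays overlapped them, and neither change was called (0.54 ± 0.23 with limma adjusted p = 0.0872, and 0.55 ± 0.23 with limma adjusted p = 0.0839, the largest in tumors among genes that did not pass). Both comparisons were called for Rpa2 when the spike-in set was fitted as a block.

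In nucleotide supply, Tk1 and Tyms were called higher and the ribonucleotide reductase genes were not called. Tk1, thymidine kinase of the salvage pathway, had the largest change of the 39 genes in tumors. It read 690.5, 638 and 673 in resistant tumors and 742, 919 and 839 in tumors, against 292, 383 and 405 in normal thymus, with no overlap between any of the groups. Tk1 was 1.87-fold higher in resistant tumors (0.90 ± 0.14, limma adjusted p = 0.000688) and 2.33-fold higher in tumors (1.22 ± 0.14, limma adjusted p = 0.000110). Tyms, thymidylate synthase, read 195, 142 and 131 in resistant tumors and 166, 145 and 133 in tumors, against 95.8, 110 and 89.0 in normal thymus, changes of 0.65 ± 0.18 and 0.59 ± 0.18. Though these did not overlap, the call of Tyms was lost in resistant tumors without normal thymus 3 (limma adjusted p = 0.0596) and in tumors without tumor 1 or 2 or normal thymus 1 or 3 (limma adjusted p of 0.0548 to 0.0838). Rrm1, the large reductase subunit, read 1503 to 1715 in resistant tumors and 1408 to 1763 in tumors, against 1317 to 1375 in normal thymus. Every array of both tumor groups was above normal, yet the changes of 0.25 ± 0.10 and 0.22 ± 0.10 were not called (limma adjusted p = 0.0644 and 0.105). Rrm2, the small subunit, read 2504, 2411 and 2035 in resistant tumors and 2291, 2267 and 1940 in tumors, against 2508, 2248 and 2250 in normal thymus, changes of -0.02 ± 0.11 and -0.11 ± 0.11. A dimmer probe set of Rrm2 read 617, 529 and 534 in resistant tumors and 609, 557 and 765 in tumors, against 664, 976 and 1009 in normal thymus, and was the 1 probe set of the 78 called lower, in resistant tumors (-0.64 ± 0.18, limma adjusted p = 0.0470).

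Of the G1/S regulators, E2f1 was called by its brightest probe set and the cyclin E genes were not. E2f1, an activating E2F factor, read 158, 208 and 246 in resistant tumors and 191, 288 and 255 in tumors, against 102, 142 and 149 in normal thymus, with no overlap. It rose by 0.63 ± 0.22 in resistant tumors (limma adjusted p = 0.0431) and by 0.90 ± 0.22 in tumors (limma adjusted p = 0.00915), with the first call lost without tumor 3, resistant tumor 2 or 3 or any 1 normal array (limma adjusted p of 0.0536 to 0.138). With the mean over probe sets E2f1 was called in neither comparison. In the fit of all probe sets its second probe set changed by 0.73 ± 0.54 in resistant tumors and 0.90 ± 0.54 in tumors. Neither was called (limma adjusted p = 0.461 and 0.348). Ccne1 and Ccne2, which encode the cyclins that drive Cdk2 at the start of S phase, were not called. Ccne2 read 392, 278 and 141 in resistant tumors and 377, 174 and 176 in tumors, against 253, 215 and 179.6 in normal thymus, changes of 0.22 ± 0.39 and 0.08 ± 0.39. Within the arrays without spike-ins its changes were 0.38 and 0.57, and within those with them -0.48 and -0.17. Ccne1 changed by 0.01 ± 0.29 and -0.23 ± 0.29. A second probe set of Ccne1 read 139, 173 and 179 in resistant tumors and 163, 173 and 136 in tumors, against 118, 118 and 119.9 in normal thymus, and was called in resistant tumors (0.45 ± 0.13, limma adjusted p = 0.0448) and not in tumors (0.40 ± 0.13, limma adjusted p = 0.0726).

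Between resistant tumors and tumors no replication gene was called. By limma 0 of 39 were called higher, beside 0.129% of all genes, and 0 lower, beside 0.231%. The smallest adjusted p among the 39 genes was 0.675, and 1 gene had an unadjusted limma p under 0.05. This was Tk1, with a change of -0.32 (95% interval -0.63 to -0.01), where every resistant array lay below every tumor array, as in 6.01% of all genes. Cdc6 was the 1 gene with every resistant array above every tumor array, as in 4.41% of all genes, with a change of 0.19 (95% interval -0.03 to 0.42). The largest change was that of Prim2 at 0.46 (95% interval -0.13 to 1.05), followed by Orc1 at 0.34 (95% interval -0.31 to 0.99). In all, 28 changes were above 0 and 11 below, with a median of 0.05 where that of all genes was -0.02. The median of the 39 genes was 0.11 within the arrays without spike-in signal and 0.02 within those with it. In both sets 19 of the 39 changes were above 0. Tk1 changed by -0.16 and -0.38 within the sets. With equal array medians the median of the 39 genes was -0.20 and that of all genes -0.26, and only 2 of the 39 changes were above 0. The sign count therefore depends on the scaling. The 95% intervals of single genes had a median width of 0.31 on either side and ran from -0.76 (E2f1) to 1.05 (Prim2), so each gene's own interval sets the difference that these arrays leave possible for it.

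**Figure D4:**
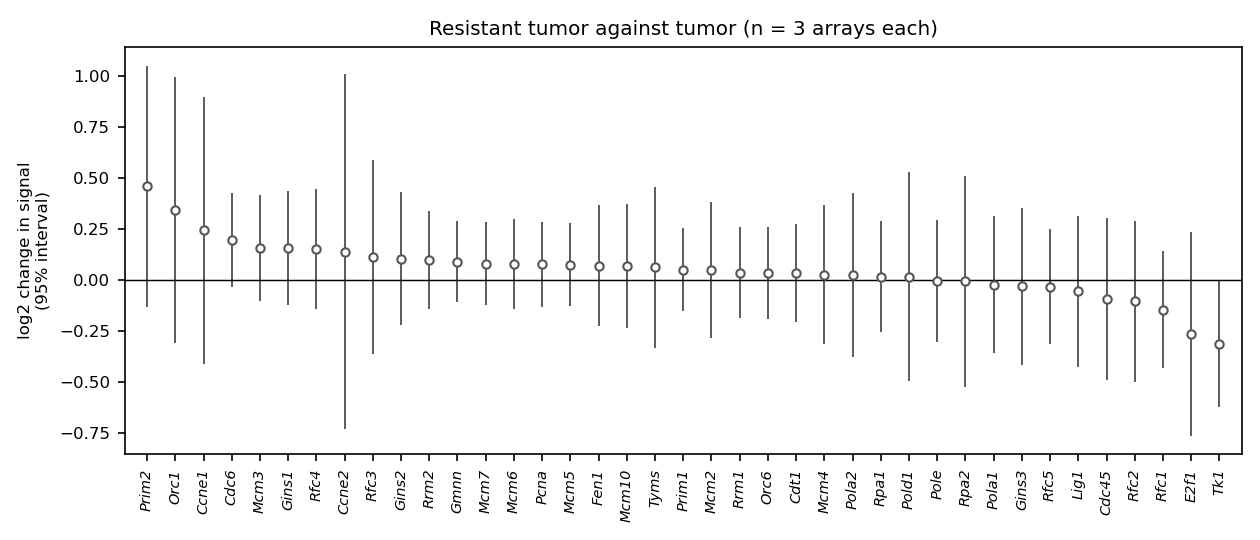
Log2 change in resistant tumors against tumors for the 39 genes, in order of size, with 95% intervals (n = 3 arrays each). Tk1 at -0.32 is the 1 gene whose interval lies off 0, and no gene passed the test after adjustment over all genes.

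Further replication factors outside the 39 genes were called higher in part. Of 33 such genes, 18 were called higher and 1 lower in resistant tumors (23.1% and 20.2% of all genes), and 16 and 0 in tumors (23.3% and 19.1% of all genes), with median changes of 0.45 and 0.33. Recql4, a helicase that helps to activate origins, read 149, 199 and 253 in resistant tumors and 146, 167 and 123 in tumors, against 76.2, 72.6 and 71.8 in normal thymus, changes of 1.41 ± 0.20 and 0.97 ± 0.20. Pold2, a subunit of polymerase delta, changed by 0.91 ± 0.17 and 1.07 ± 0.17, and Dna2, a nuclease of lagging strand processing, by 0.85 ± 0.12 and 0.88 ± 0.12. All tumor arrays were above all normal arrays for these genes. Mcm8 (1.998-fold), Pole3 (0.73 ± 0.12) and Pole2 (0.72 ± 0.15) were also among the 6 largest in resistant tumors, and Chtf18 (0.96 ± 0.33), Mcmbp (0.80 ± 0.11) and Orc2 (0.72 ± 0.12) in tumors. The call of Chtf18 was lost without tumor 2, tumor 3, resistant tumor 2 or any 1 normal array (limma adjusted p of 0.0510 to 0.152). The gene called lower, Orc4, is named after its value was seen and changed by -0.50 ± 0.16 with overlapping groups. Nucleotide enzymes beyond the 39 genes had 8 of 11 called higher and 2 lower in both tumor groups, with median changes of 0.84 and 0.74. Cad, which starts pyrimidine synthesis, read 463, 524 and 625 in resistant tumors and 488, 629.7 and 529 in tumors, against 145, 170.3 and 172 in normal thymus (1.72 ± 0.15 and 1.75 ± 0.15). Shmt1, which supplies one-carbon units for thymidylate, was 2.82-fold and 2.62-fold higher. The genes called lower were Dck, deoxycytidine kinase, at -1.10 ± 0.13 and -0.99 ± 0.13, and Samhd1, which breaks down deoxynucleotides. Samhd1 read 42.1, 31.1 and 32.6 in resistant tumors and 32.9, 28.9 and 35.1 in tumors, against 157, 159.5 and 156 in normal thymus (-2.17 ± 0.18 and -2.29 ± 0.18).

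Few genes of mitosis, the phase that follows replication, were called. Of 24 tested, 0 were called higher and 4 lower in resistant tumors, and 1 and 4 in tumors, with a median change of -0.17 in each. These shares of lower calls are near those of all genes, 20.2% and 19.1%, so the count of lower calls is no result about mitosis genes. The 0 and 1 higher calls stand beside 23.1% and 23.3% of all genes, a difference that was not tested. Ndc80, a kinetochore component, read 134, 139 and 109 in resistant tumors and 118, 101 and 116 in tumors, against 160.5, 170.1 and 169 in normal thymus (-0.39 ± 0.14 and -0.58 ± 0.14). Cdc20, an activator of the anaphase ubiquitin ligase, read 1265, 1243 and 1415 in resistant tumors and 1279, 1415 and 1224 in tumors, against 1726, 1603 and 1748 in normal thymus (-0.37 ± 0.09 and -0.38 ± 0.09). Cenpe, a kinetochore motor, was called lower in both, Aurka, a spindle kinase, in resistant tumors (-0.45 ± 0.13) and Mad2l1, a checkpoint protein, in tumors (-0.46 ± 0.15). Aurkb, a kinase of the chromosomal passenger complex, was the 1 called higher, in tumors (0.33 ± 0.12). With the mean over probe sets in place of the brightest, Aurka was called higher in both tumor groups (0.40 and 0.56) and Cenpe was not called in either (0.032 and -0.55). Apart from those of Cdc20 and of Ndc80 in tumors, these calls were lost when single arrays were left out, with limma adjusted p of up to 0.133. In resistant tumors this held for Ndc80 and Cenpe without tumor 3, resistant tumor 3 or any 1 normal array, for Ndc80 also without resistant tumor 1, for Cenpe also without resistant tumor 2, and for Aurka without resistant tumor 1 or 2 or normal thymus 2 or 3. In tumors it held for Cenpe without tumor 3 or normal thymus 2 or 3, for Mad2l1 without tumor 2 or 3 or normal thymus 2 or 3, and for Aurkb without any 1 tumor array, resistant tumor 2 or normal thymus 1 or 3. The difference between this list and the replication genes was not tested.

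**Figure D5:**
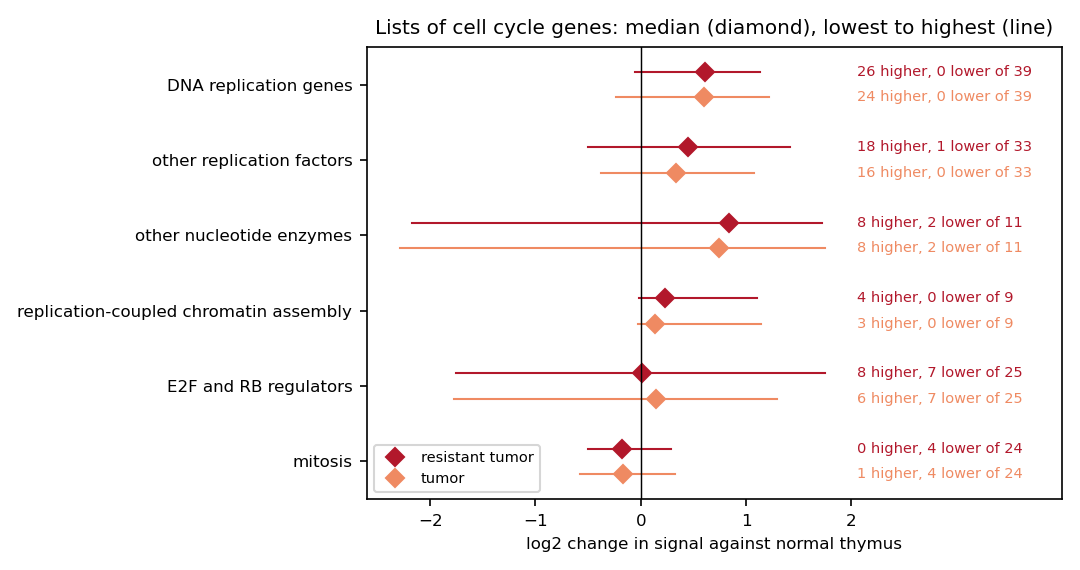
Median (diamond) and range (line) of log2 changes against normal thymus in 6 lists of genes, in resistant tumors (red) and tumors (orange), with the numbers called higher and lower of those tested. The replication genes have medians of 0.61 and 0.60, and the mitosis genes -0.17 in both groups.

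Markers of several cell types in the tissue differed between the tumor groups and normal thymus. Of all genes, 23.1% were called higher and 20.2% lower in resistant tumors, and 23.3% and 19.1% in tumors. Thymocyte markers were called lower in 13 of 17 cases in resistant tumors and 12 of 17 in tumors, with 1 higher in each, Ptcra, and a summed signal of 14360 to 17190 and 16060 to 17890, against 27400 to 29630 in normal thymus. Cd8b1 and Cd8a, the coreceptor chains, were at least 131-fold and 106-fold lower in resistant tumors and at least 156-fold and 125-fold lower in tumors. The bound takes a gene under the array median on every array of a group at the higher of its signal and that median. Thymic epithelial markers were called lower in 10 of 12 in both groups, with summed signals of 365 to 607 and 282 to 737, against 5952 to 6330 in normal thymus. Prss16, a protease of cortical epithelium, read 27.7, 26.6 and 5.36 in resistant tumors and 18.6, 2.31 and 2.83 in tumors, against 2605, 2454 and 2647 in normal thymus. Fibroblast markers were called higher in 6 of 10 and lower in 2 in resistant tumors, and 5 and 1 in tumors. Their summed signals were 6455 to 11200 and 5400 to 9691, against 4591 to 5262 in normal thymus. Thy1, which is in both the thymocyte and the fibroblast list, made up most of that sum in normal thymus. It read 2771, 2853 and 3062 in resistant tumors and 2542, 3109 and 3107 in tumors, against 4014, 3308 and 3697 in normal thymus. The sum therefore does not read fibroblasts alone. The 5 B cell markers tested had 1 called lower in resistant tumors and 4 in tumors, and the 13 dendritic cell and macrophage markers 4 and 6. The B cell count in resistant tumors is near the share of all genes, so it is no result about those markers. Of 8 endothelial markers 5 were called higher and 1 lower in each. The normal arrays held the defining markers of thymus, while the tumor arrays held part of the thymocyte signal and little of the epithelial signal. The part of these cell types in the replication gene values was not tested.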

How the data were processed

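Total RNA of 9 samples was read on Affymetrix Mouse430_2 arrays, 3 each from resistant thymus tumor, thymus tumor and normal thymus. The values are MAS5 signal intensities on a linear scale, per the submitters' processing notes. Every array had a trimmed mean of 100.03, while the sources used here give no MAS5 version, scaling target or detection calls. On tumor 1 the control probe sets were deposited in the order of their names (r = -0.26 with the other arrays as deposited, 0.811 by name) and were matched by name. Signals below 1 (5.48% to 14.5% of an array) were set to 1 before log2.

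Probe sets at or above their array's median on at least 3 of 9 arrays were kept, and the brightest probe set of a symbol stood for the gene. All 3 groups entered 1 limma fit (lmFit and eBayes with a trend, limma 3.58.1, R 4.3.3) of 11671 genes, with Benjamini-Hochberg adjustment over all of them and a threshold of 0.05. The steps were tested on simulated data. Figures used Python 3.11.15 and matplotlib 3.10.9. Within-set changes compare means of arrays with or without spike-in signal.

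Named by rule were the genes called in any comparison, MCM2-7 and Pcna, the 3 largest changes not called in each comparison, up to 6 called genes of each other list, up to 3 of each marker list, and up to 6 promoters of called genes holding E2F letters. The 39 genes and all lists were chosen with earlier results of these data known. Gene symbols came from the platform annotation, and all 39 were found in RefSeq. The 932 probe sets with several symbols were left out, 1 of which named a gene of the 39. Alternatives covered normalization, filter, probe set rule, blocks and each array left out in turn. The number of arrays limits the precision.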

Additional observations from a re-analysis of the deposited data

How the results depend on the processing

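No replication gene was called between resistant tumors and tumors under any alternative run. When each array was left out in turn, 20 to 27 of the 39 genes were called higher in resistant tumors against normal thymus and 18 to 24 in tumors, with medians of 0.51 to 0.67 and 0.53 to 0.64, and the median of resistant tumors against tumors was 0.03 to 0.09. Of the called genes, 19 of 26 and 17 of 24 kept their call in every such repeat. The other settings, apart from those with equal array medians, gave 23 to 30 and 20 to 28. Among them was quantile normalization, which gives every array the same distribution, with 27 and 24. With equal array medians 2 genes stayed called in each comparison and the median against tumors was -0.20. Equal medians fitted together with a spike-in block, chosen after seeing the data, gave 31 and 32 called genes and a median of 0.80 in resistant tumors. The cause was not tested. The spike-in block alone gave 30 and 28. With the mean over probe sets Aurka turned to 0.40 in resistant tumors and 0.56 in tumors, and Cenpe to 0.032 in resistant tumors. E2f1 then lost its call in both comparisons with normal thymus and Rfc4 its call in tumors.

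Replicate numbers are shared between groups, and 6 of 9 arrays correlated best, in their deviations from group means, with an array of their own number. Same-numbered pairs did not all correlate above 0 (r of -0.337 to 0.654): the pairs below 0 were those of resistant tumor 2 with tumor 2 and normal thymus 2, which lie in the other spike-in set, while all number 1 and number 3 pairs share one and were above 0. The labels do not say that a number marks a shared source, so the numbers were not taken as pairs. With the replicate block 28 and 26 replication genes were called higher against normal thymus and 0 between the tumor groups.

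Over all genes, 5049 were called in resistant tumors against normal thymus, 4943 in tumors and 42 between the tumor groups. Equal array medians gave 2034, 2287 and 18. The last count ran from 8 to 143 under the alternatives, with 70 without resistant tumor 3, 8 without tumor 2, 10 without tumor 3, 20 without normal thymus 2 and 19 without normal thymus 3.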

Other observations

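Single genes that assemble chromatin behind the fork were called higher in the tumor groups than in normal thymus. Of 9 tested, 4 were called higher in resistant tumors (23.1% of all genes) and 3 in tumors (23.3% of all genes), with 0 lower and median changes of 0.23 and 0.13. The list of 9 is too short to set these counts apart from the shares of all genes, so they are no result about it. Chaf1b, a subunit of the histone chaperone CAF-1, read 286, 336 and 340.4 in resistant tumors and 330, 325 and 328 in tumors, against 153, 137 and 156 in normal thymus, with no overlap (1.11 ± 0.11 and 1.14 ± 0.11). Dnmt1, which copies DNA methylation onto the new strand, changed by 0.44 ± 0.10 in resistant tumors and by 0.50 ± 0.10 in tumors. Uhrf1, which recruits Dnmt1, changed by 0.43 ± 0.10 and 0.44 ± 0.10. Nasp, a histone chaperone, was called in resistant tumors (0.38 ± 0.10), a call lost without resistant tumor 2 (limma adjusted p = 0.0576), and not in tumors (0.20 ± 0.10).

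Of 25 regulators of E2F and RB tested, 8 were called higher and 7 lower in resistant tumors (23.1% and 20.2% of all genes), and 6 and 7 in tumors (23.3% and 19.1% of all genes). These shares are close to those of all genes, so the counts are no result about the list, which had median changes of 0.01 and 0.14. Ccnd2, a D-type cyclin, read 87.0, 122 and 106 in resistant tumors and 78.0, 103 and 94.3 in tumors, against 287, 317 and 332 in normal thymus (-1.59 ± 0.16 and -1.77 ± 0.16). Rbl2, an RB family member, changed by -1.75 ± 0.16 and -1.58 ± 0.16, and E2f7, a repressing E2F factor, by -1.68 ± 0.26 and -1.50 ± 0.26. E2f2, an activating E2F factor, changed by -1.26 ± 0.21 and -1.39 ± 0.21, and E2f6, a repressing one, by 1.29 ± 0.17 and 1.14 ± 0.17. Cdkn1a, a cyclin-dependent kinase inhibitor, read 210.3, 200 and 494 in resistant tumors and 115, 284 and 247 in tumors, against 75.8, 83.6 and 86.4 in normal thymus. It was higher on every tumor array (1.75 ± 0.39 and 1.30 ± 0.39), and its call in tumors was lost without tumor 2, tumor 3 or any 1 normal array (limma adjusted p of 0.0537 to 0.0935).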
